A study of Mus musculus with 18 samples.

Results

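Interleukins are secreted messengers of the immune system, and interleukin receptors are the surface proteins through which cells detect them. All 47 genes whose symbol begins with Il and a digit were taken from the 15035 genes of the table, and sorted by name into 10 ligands, 35 receptors, 1 receptor antagonist (Il1rn) and 1 secreted binding protein (Il18bp). Membership went by symbol alone, while the gene family itself was picked with earlier results of these data known. RefSeq lists 83 coding mouse genes with such symbols, and 47 of them have a row. Genes without a row, among them Il2, Il4, Il6, Il10, Il12b and Il21, were not analysed here.

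The libraries were made from kidney cortex of 18 mice, with 3 mice in each of 6 groups. In 5 groups the mice were Mrl/lpr, a strain that carries the lpr allele of Fas in every cell, accumulates lymphocytes and develops nephritis. They received the multi-target treatment, MMF (mycophenolate mofetil, which blocks purine synthesis in lymphocytes), FK506 (tacrolimus, a calcineurin inhibitor), prednisone (a glucocorticoid) or vehicle. The healthy group were Mrl/Mpj wild type mice, also given vehicle. Diseased cortex below means cortex of vehicle Mrl/lpr mice. In every comparison with healthy mice the genotype differs as well, so nephritis and the lpr genotype cannot be told apart. The labels give neither ages nor doses, and leave the makeup of the multi-target treatment unstated. The title of the series speaks of combination therapy for lupus nephritis, and the comparisons here ask how these genes stood in diseased against healthy cortex and in treated against vehicle mice. Nothing in the labels ties a mouse in one group to a mouse in another. The p-values weigh a difference against the spread between mice, pooled over all 6 groups. That spread was unequal for some genes, as for Il1f6, with a log2 SD of 2.94 in vehicle and 0.16 in healthy mice.

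As background, most interleukin receptors have no enzyme of their own. The receptors of the common gamma chain (Il2rg), gp130 (Il6st) and IL-10 families signal through JAK kinases and STAT factors, which bind DNA elements called GAS. The IL-1 family, which includes IL-18, IL-33 and the IL-36 ligands, acts through MyD88 and NF-kappaB, and is held back by secreted proteins such as the IL-1 receptor antagonist and the IL-18 binding protein. In lupus nephritis, leukocytes that carry many of these receptors enter the kidney, while tubular and vascular cells can release IL-18, IL-33 and IL-34.

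Values below are normalised reads, which are 2 to the power of the deposited log2 value, and stand for reads scaled to the deepest library. Values of single mice follow the order of mouse number, which is 6, 18 and 39 for multi-target, 1, 14 and 27 for MMF, 3, 12 and 24 for FK506, 23, 29 and 35 for prednisone, 7, 17 and 36 for vehicle, and 1, 2 and 3 for healthy. Differences are on the log2 scale with the SE of a limma model, and a gene was called where its p, adjusted by Benjamini-Hochberg over all 15035 genes, was under 0.05. Gene sums per library ran between 28939845 and 41066953 recovered reads. The median member stood at 210.5 reads and the median gene at 805 reads, and 41 of the 47 members lay below the median level of all genes. The within-group SD of the median member was 0.26 on the log2 scale, against 0.22 for the median gene, and both include counting error. Gene lengths were not used, and levels are compared between mice and not between genes.

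The labels could be checked against markers. Fas, the gene altered in Mrl/lpr mice, stood at 272, 312 and 241 normalised reads in vehicle mice, against 98.9 to 115 in the 3 healthy mice, which is no check of the allele because reads outside the altered part still count. Kidney cortex markers such as Lrp2, Slc34a1 and Umod were present in all 18 libraries. Vehicle mouse 17 carried adipocyte transcripts, with a summed marker level of 21139 normalised reads against 765 to 984 in the other vehicle mice, and FK506 mouse 12 carried adrenal transcripts, with 17150 against 527 and 646 in the other FK506 mice. Summed urothelial markers were uneven in MMF mice, from 1480 to 9809 with the highest in mouse 14, against at most 4944 in the other groups. Vehicle mouse 36 and prednisone mouse 23 stood apart in Lcn2, a tubular injury marker, with 14720 and 8973 normalised reads against at most 1811 in the other mice of their groups. Calls lost without vehicle mouse 36 or prednisone mouse 23 are given with the value without it.

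Diseased cortex carried more transcript of many interleukin genes than healthy cortex. In vehicle Mrl/lpr against healthy mice, 27 of the 47 members were called, 23 higher and 4 lower, where 22.4% of all genes were called, 15.7% higher and 6.76% lower. The ligands gave 6 higher and 0 lower of 10, the receptors 15 higher and 4 lower of 35, and both secreted inhibitors were higher. The median difference was 0.67 over the members and 0.09 over all genes. These medians were 0.37 and 0.07 without the lowest 25% of genes, and 0.52 and 0.06 without vehicle mouse 36. In 36 members the 3 vehicle mice lay apart from the 3 healthy mice, where this held for 52.4% of all genes. Leaving out each vehicle or healthy mouse in turn kept 15 of the 27 calls every time. Without vehicle mouse 36 and prednisone mouse 23 together, 18 members were called higher and 2 lower, and without vehicle mouse 17 and FK506 mouse 12 together, 21 and 2. The count and its split depended on the scaling, since quantile normalization moved the median of all genes to -0.07 and gave 16 higher and 6 lower, with a median of 0.41 over the members. A fit on the vehicle and healthy mice alone gave 20 higher and 0 lower. For these alternative fits the share of all genes called is not given here. Their counts therefore do not set the members apart from other genes.

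**Figure D1:**
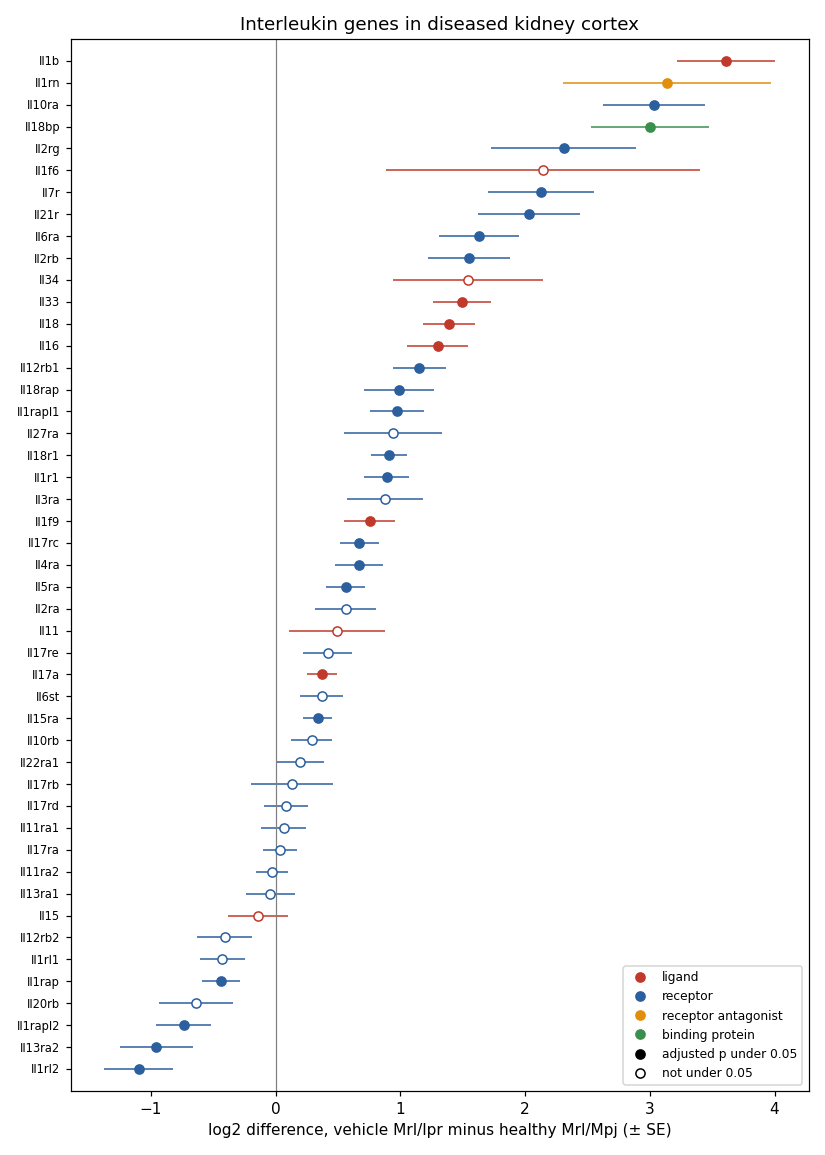
Log2 difference between vehicle Mrl/lpr and healthy Mrl/Mpj cortex for each of the 47 interleukin genes, with the SE of the limma model, 3 mice a group. Filled points passed an adjusted p of 0.05, and Il1b lies farthest to the right at 3.61.

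Among the ligands, Il1b, the secreted pyrogenic cytokine of activated myeloid cells, moved farthest. It stood at 369.7, 340.5 and 384 normalised reads in vehicle mice, against 18.7, 29 and 48.8 in healthy mice. The groups lay far apart, with a 12.2-fold difference (log2 3.61 ± 0.39, limma adjusted p = 3.7e-05). The gene lies on chromosome 2 of mm10 between 129364570 and 129371139, on the minus strand. Il33, an alarmin stored in nuclei of stromal and endothelial cells, reached 1373, 902 and 1404 normalised reads in vehicle mice, against 392.2, 415 and 476 in healthy mice. Every vehicle mouse was above every healthy mouse, by 1.50 ± 0.23 (limma adjusted p = 0.000511). Il18, a cytokine matured by caspase-1, stood at 163, 183 and 250.4 normalised reads in vehicle mice, against 77.0, 64.0 and 84.1 in healthy mice (1.39 ± 0.21, limma adjusted p = 0.000417). Il16, a chemoattractant for cells that carry CD4, stood at 481, 657 and 704 in vehicle mice, against 223, 268 and 249.9 in healthy mice, again without overlap (1.30 ± 0.24, limma adjusted p = 0.00204).

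The other called ligands moved less. Il1f9 (an IL-36 ligand of epithelia) stood at 113, 96.6 and 90.5 normalised reads in vehicle mice, against 61.4, 70.0 and 47.7 in healthy mice, and its call was lost without healthy mouse 3. Il17a, the founding cytokine of the IL-17 family, had 322, 325 and 267 normalised reads in vehicle mice, against 240.3, 239 and 225 in healthy mice. Its difference of 0.37 ± 0.12 (limma adjusted p = 0.0419) was lost when any of vehicle mice 7 and 17 or healthy mice 1, 2 and 3 was left out, and after quantile normalization. Alignments were not used here, so whether all reads in this row come from Il17a could not be checked. Il34, a second ligand of the macrophage colony-stimulating factor receptor, showed one mouse well above the rest, with 564, 296 and 2200 normalised reads in vehicle mice and 222, 236 and 284 in healthy mice (limma adjusted p = 0.0771). Its difference was 1.54, and 0.73 without vehicle mouse 36. Il1f6, another IL-36 ligand, was likewise high in vehicle mouse 36 only, with 20.1, 14 and 567 normalised reads against 12.5, 10.9 and 13.6 in healthy mice (limma adjusted p = 0.23). Without that mouse its difference was 0.45 rather than 2.14.

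Both secreted inhibitors stood higher in diseased cortex. Il18bp, which captures free IL-18, was at 2371, 3224 and 2439 normalised reads in vehicle mice, against 332, 346 and 318 in healthy mice. That difference of 3.00 ± 0.47 (limma adjusted p = 0.00054) held without any single mouse. Il1rn, which occupies the IL-1 receptor without signalling, was at 171, 211 and 948 normalised reads in vehicle mice, against 35.7, 37.0 and 38.2 in healthy mice. Its call (3.14 ± 0.83, limma adjusted p = 0.0163) rested on few mice: without vehicle mouse 36 the difference was 2.36 with an adjusted p of 0.0981, and without healthy mouse 1 the adjusted p was 0.052.

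The largest receptor difference was that of Il10ra, the ligand-binding chain of the IL-10 receptor, which most leukocytes carry. It had 746, 1255 and 1234 normalised reads in vehicle mice, against 94.7, 141 and 157 in healthy mice, or 8.2-fold (3.04 ± 0.41, limma adjusted p = 0.000177). Its partner Il10rb, which is found on most cell types, was not called and stood at 3950, 4120 and 3897 normalised reads in vehicle mice, against 3343, 3080 and 3385 in healthy mice. The common gamma chain and the receptors that pair with it formed the next group. Il2rg, the shared chain, was at 512, 982 and 992 normalised reads in vehicle mice, against 137, 162 and 184 in healthy mice (2.31 ± 0.58, limma adjusted p = 0.0125, and 0.0566 without vehicle mouse 36). Il7r, needed for survival of T cells, was at 183, 127 and 275 in vehicle mice, against 33.3, 45.9 and 49.98 in healthy mice (2.13 ± 0.42, limma adjusted p = 0.00303). Il21r, on B and T cells, was at 181, 299 and 321 in vehicle mice, against 59.3, 68.8 and 62.5 in healthy mice (2.03 ± 0.41, limma adjusted p = 0.00323). Il2rb, shared by the IL-2 and IL-15 receptors, was at 221, 403 and 364 in vehicle mice, against 109, 111 and 107 in healthy mice (1.55 ± 0.33, limma adjusted p = 0.00462). No vehicle mouse overlapped a healthy mouse in any of these 4 receptors.

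Other chains of that family changed little or failed the test. Il4ra, which binds IL-4 and IL-13, was called at 0.67 ± 0.19 (limma adjusted p = 0.0237), but the call was lost without any one healthy mouse and without vehicle mouse 36 (0.52, adjusted p = 0.128 in limma). Il15ra was called at 0.34 ± 0.12 (limma adjusted p = 0.0494), and that call was lost in 5 of the 6 fits that left out one vehicle or healthy mouse (0.30 without vehicle mouse 36). Il2ra, the chain of activated and regulatory T cells, had 83.4, 117 and 136 normalised reads in vehicle mice, against 62.4, 74.8 and 88.6 in healthy mice, and the groups overlapped (limma adjusted p = 0.111). Il15, the ligand, stood at 414, 689.9 and 476 in vehicle mice and at 579, 576 and 549 in healthy mice.

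Receptors for IL-6, IL-12 and the beta-chain cytokines followed. Il6ra, the IL-6 binding chain, was at 506, 628 and 543 normalised reads in vehicle mice, against 160.2, 199 and 183 in healthy mice (1.63 ± 0.32, limma adjusted p = 0.00268). Il6st, its signal-transducing partner on most cells, was not called, with 7819, 6372 and 7996 in vehicle mice and 5970, 5451 and 5676 in healthy mice. Il12rb1, a chain of the IL-12 and IL-23 receptors, was at 88.7, 123 and 134 in vehicle mice, against 55.1, 50.7 and 47.7 in healthy mice (1.15 ± 0.21, limma adjusted p = 0.00157). Il5ra was called at 0.56 ± 0.16 (limma adjusted p = 0.0212), a call lost without vehicle mouse 17, vehicle mouse 36 (then 0.51) or healthy mouse 3. Il3ra and Il27ra missed the threshold with limma adjusted p of 0.0528 and 0.0978, at 294, 413 and 709 and at 173, 272 and 336 normalised reads in vehicle mice, against 239, 227 and 256 and 132, 135 and 126 in healthy mice.

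In the IL-1 receptor family the members split by direction. Il18r1, the ligand-binding chain for IL-18, was at 129.9, 122 and 141 normalised reads in vehicle mice, against 73.8, 63.1 and 72.9 in healthy mice (0.91 ± 0.15, limma adjusted p = 0.00066). Il1r1, the signalling receptor for IL-1, was at 557, 599.8 and 896 in vehicle mice, against 378, 348 and 358 in healthy mice (0.89 ± 0.18, limma adjusted p = 0.00376). Il18rap, the partner chain of Il18r1, was called at 0.99 ± 0.28 (limma adjusted p = 0.023), with 0.64 and an adjusted p of 0.126 without vehicle mouse 36. Its call was also lost without any one healthy mouse. Il1rapl1, a relative known mainly from neurons, was called higher at 0.97 ± 0.22 (limma adjusted p = 0.00633). It was low in level, with 85.6, 80.0 and 115 normalised reads in vehicle mice, against 48.9, 55.5 and 38.6 in healthy mice. Its call held without any single mouse but was lost under at least 1 other alternative.

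Lower in diseased cortex were Il1rl2, Il13ra2, Il1rapl2 and Il1rap. Il1rl2, the receptor for IL-36 ligands, had 608, 878 and 324 normalised reads in vehicle mice, against 1212, 1259 and 1109 in healthy mice. Its difference was -1.10 ± 0.28 (limma adjusted p = 0.0127), and without vehicle mouse 36, the lowest of them, it was -0.71 with an adjusted p of 0.0554. Il13ra2, a decoy receptor for IL-13, had 77.1, 73.7 and 43.6 in vehicle mice, against 123, 135 and 109 in healthy mice (-0.96 ± 0.29, limma adjusted p = 0.0317). Il1rl1, the IL-33 receptor, was not called, at 80.3, 81.3 and 93.9 in vehicle mice, against 113, 117 and 112 in healthy mice (limma adjusted p = 0.0979). Il1rapl2 differed by -0.74 ± 0.22 (limma adjusted p = 0.0281). Il1rap, the accessory chain of the IL-1, IL-33 and IL-36 receptors, had 226, 201 and 209 in vehicle mice, against 286, 320.2 and 257 in healthy mice (-0.44 ± 0.15, limma adjusted p = 0.0492). Each of these 4 calls was lost when vehicle mouse 36 was left out. The differences were then -0.69 for Il13ra2, -0.57 for Il1rapl2 and -0.43 for Il1rap, the last almost as with it, at limma adjusted p of 0.167, 0.14 and 0.137. In the fit on vehicle and healthy mice alone, 0 of the 4 were called. The calls of Il13ra2 and Il1rapl2 were lost in 3 more such fits each, and that of Il1rap in all 6 fits that left out one mouse. Il20rb, not called in the fit of all mice, was called lower without vehicle mouse 36, at -0.99 (limma adjusted p = 0.0302). It had 40.1, 50.8 and 93.9 normalised reads in vehicle mice, against 110, 61.6 and 107 in healthy mice. The summed level of the 14 kidney cortex markers was also lower, between 262718 and 654346 normalised reads in vehicle mice with the lowest in mouse 36, against 724091 to 827401 in healthy mice, and its part in these differences was not tested.

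Of the IL-17 receptor chains, only Il17rc was called in this comparison, and its call held under all alternatives. Il17rc, which pairs with Il17ra on epithelia and stroma, was at 770.1, 897 and 1106 normalised reads in vehicle mice, against 584, 532 and 609.6 in healthy mice (0.67 ± 0.16, limma adjusted p = 0.00783). Il17ra, the shared chain, overlapped between the groups with 1640, 2062 and 1929 in vehicle mice and 1791, 1716 and 1982 in healthy mice. Il17rb and Il17rd overlapped as well. Il17re was not called, but did not overlap, with 585, 602 and 417 in vehicle mice and 408, 380 and 398 in healthy mice.

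Markers of leukocytes moved with these genes. Of the macrophage and myeloid markers, 15 of 17 were called higher in vehicle mice, and their summed level was 37806 to 82043 normalised reads in vehicle mice, against 8656 to 9815 in healthy mice. Adgre1 had no row. For T cell markers 14 of 15 were called higher, with sums of 4437 to 9224 in vehicle mice, against 2600 to 2813 in healthy mice. For natural killer markers all 4 with a row were called higher, and for B and plasma cell markers 6 of 8. For neutrophil markers it was 2 of 9, with sums of 1056 to 1692 in vehicle mice and 485 to 562 in healthy mice. Their part in the interleukin differences was not tested. In whole cortex, more cells of a type and more RNA per cell cannot be told apart.

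Genes that work with interleukin receptors moved the same way in part. Of 13 measured partner subunits and related cytokines, 6 were called higher and 0 lower, led by Csf2rb (3.17 ± 0.30, limma adjusted p = 8.88e-06), the chain shared by the IL-3, IL-5 and GM-CSF receptors. Of 22 genes for IL-1 processing and adaptors, 10 were called higher and 2 lower, among them Aim2, a DNA sensor of the inflammasome (1.63). Of 22 JAK, STAT and SOCS genes 8 were called higher and 0 lower, among them Stat3 (1.54), the main factor downstream of IL-6 and IL-10. Of 11 IL-17 signalling genes 6 were called higher and 0 lower, among them Zc3h12a (1.45), an RNase that limits cytokine transcripts. The medians of these 4 lists were 1.88, 0.24, 0.17 and 0.76, against 0.09 for all genes.

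The sequences just before listed transcript starts of the members were read for the elements through which STAT factors, interferon-regulated factors and NF-kappaB act. RefSeq promoter windows of the mm10 assembly (GRCm38.p6) were found for 38 of the 47 members, each taken as the 250 bases before a transcript start, with every listed start searched. A GAS element was written as TTCNNNGAA, an interferon element core (ISRE core) as GAAA, 2 free bases and GAAA, and a kappaB element as GGG, 2 free bases and TTTCC, on both strands. A GAS match stood in 3 of the 20 members that were called higher and have a window (15.0%), in 1 of the 18 other members (5.56%) and in 7.54% of the 11201 genes of the table with a window. A kappaB match stood in 3 of the 20 (15.0%), 0 of the 18 and 1.92% of all. The interferon element core stood in 0 of the 38, against 3.18% of all. The 4 called genes with the largest difference among those holding a match are shown, 5′ to 3′ on the strand of the gene, with the matches in capitals. Il1rn lies at chr2:24345121-24345370 on the plus strand, Il7r at chr15:9529877-9530126 on the minus strand, Il16 at chr7:83655496-83655745 on the minus strand and Il18r1 at chr1:40465756-40466005 on the plus strand.
Il1rn: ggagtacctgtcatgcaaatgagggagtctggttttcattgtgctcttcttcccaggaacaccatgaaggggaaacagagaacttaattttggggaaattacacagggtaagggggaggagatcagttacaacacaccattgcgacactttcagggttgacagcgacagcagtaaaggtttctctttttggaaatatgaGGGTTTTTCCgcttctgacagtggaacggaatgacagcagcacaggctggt
Il7r: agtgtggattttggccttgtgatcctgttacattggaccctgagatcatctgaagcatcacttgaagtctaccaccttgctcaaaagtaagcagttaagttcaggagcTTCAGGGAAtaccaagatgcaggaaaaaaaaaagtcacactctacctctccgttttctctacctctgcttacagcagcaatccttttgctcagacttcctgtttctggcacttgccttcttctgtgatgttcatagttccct
Il16: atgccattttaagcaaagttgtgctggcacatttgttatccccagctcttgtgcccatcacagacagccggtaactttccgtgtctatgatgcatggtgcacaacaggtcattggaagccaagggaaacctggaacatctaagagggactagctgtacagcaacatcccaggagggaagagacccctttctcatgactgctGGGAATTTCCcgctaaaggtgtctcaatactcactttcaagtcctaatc
Il18r1: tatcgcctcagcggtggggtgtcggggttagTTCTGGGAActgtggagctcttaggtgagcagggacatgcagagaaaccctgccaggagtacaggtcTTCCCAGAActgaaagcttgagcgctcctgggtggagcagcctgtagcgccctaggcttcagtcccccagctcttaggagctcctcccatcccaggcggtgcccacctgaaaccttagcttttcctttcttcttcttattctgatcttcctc
The kappaB matches of Il1rn and Il16 begin 51 and 49 bases before the start, the GAS match of Il7r 142 bases before it, and the GAS matches of Il18r1 219 and 152 bases before it. For Il1rn, Il16 and Il18r1 the window belongs to 1 of several listed starts. All 4 windows lie within the span of their gene in the GENCODE M21 annotation, so they are not upstream of the whole gene. A match is a description of the letters and not of binding, and the counts were small.

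In treated mice, most interleukin genes lay below their vehicle level, and no member was called under any drug. The limma count was 0 of 47 for MMF, FK506, prednisone and multi-target against vehicle and for the mean of the 4 arms, where 1.58% of all genes were called with MMF and 0.0% in each of the others. At an unadjusted p under 0.05 there were 20 members with MMF, 18 with FK506, 2 with prednisone, 19 with multi-target and 18 for the mean of the 4, where 29.9%, 19.9%, 3.15%, 15.6% and 24.4% of all genes passed. The voom count on recovered reads was 0 for each drug and 2 for the mean of the 4. The 0 for MMF depended on single mice, since 14 members were called without MMF mouse 1 and 12 without vehicle mouse 7. For the mean of the 4 arms the count was 14 without MMF mouse 1, 11 without vehicle mouse 7 and 7 without prednisone mouse 23. The share of all genes called in these fits is not given here, so these counts do not set the members apart from other genes.

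The direction was shared by most members within each arm. Below 0 were 36 of 47 members with MMF, 36 with FK506, 32 with prednisone and 37 with multi-target, at medians of -0.35, -0.34, -0.13 and -0.33, against medians of -0.05, -0.01, 0.03 and -0.02 for all genes. Without vehicle mouse 36 the medians with MMF, FK506 and multi-target were -0.26, -0.20 and -0.23. The prednisone median was -0.04 without vehicle mouse 36 or prednisone mouse 29, and -0.24, -0.23 and -0.21 without prednisone mouse 23, vehicle mouse 7 or vehicle mouse 17. Lying wholly apart from vehicle mice were 18, 17, 5 and 16 members, where 17.7%, 22.0%, 6.71% and 17.1% of all genes did so. In Il1b, Il18, Il18bp and Il10rb all 12 treated mice lay below all 3 vehicle mice, which makes 4 members apart where 0.885% of all genes were. The arms share the same 3 vehicle mice, so their values are set side by side and not counted as separate support.

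**Figure D2:**
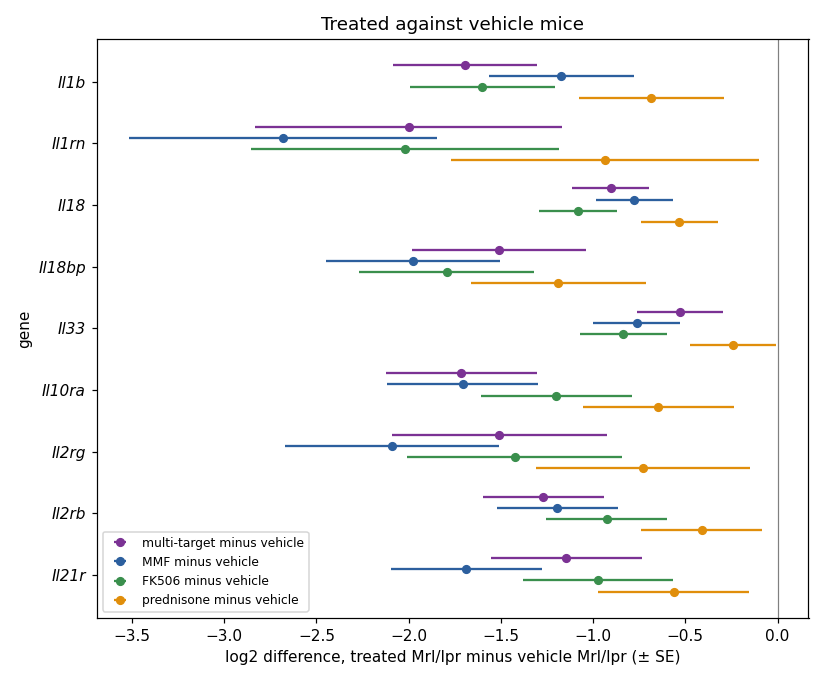
Log2 difference of each treated arm from the same 3 vehicle Mrl/lpr mice for named interleukin genes, with the SE of the limma model. All of the plotted differences of Il1b, Il10ra, Il18bp and Il1rn lie below 0, and none passed an adjusted p of 0.05.

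Il1b gave the plainest picture by mouse. It had 142, 89.9 and 112 normalised reads with multi-target, 197, 168 and 128 with MMF, 63.4, 186 and 148 with FK506 and 203, 329 and 175 with prednisone, against 369.7, 340.5 and 384 in vehicle mice. Each of the 12 treated mice was below each vehicle mouse. The differences were -1.69 ± 0.39 with multi-target, -1.17 ± 0.39 with MMF, -1.60 ± 0.39 with FK506 and -0.68 ± 0.39 with prednisone, at limma adjusted p of 0.163, 0.0842, 0.171 and 0.943. Il18 had 119, 80.8 and 118 with multi-target, 139, 98.0 and 109 with MMF, 93.8, 103 and 81.1 with FK506 and 148, 124 and 134 with prednisone, against 163, 183 and 250.4 in vehicle mice. Here too all 12 treated mice were below the 3 vehicle mice, by -0.91, -0.78, -1.08 and -0.53 in the same order (limma adjusted p 0.163, 0.0589, 0.171 and 0.943).

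Il18bp and Il10ra varied more within an arm. Il18bp had 893, 626 and 1439 normalised reads with multi-target, 1547, 621 and 319 with MMF, 656, 723 and 942 with FK506 and 2178, 756 and 956 with prednisone, against 2371, 3224 and 2439 in vehicle mice. The highest treated mouse was prednisone mouse 23, still below the lowest vehicle mouse, and the difference with MMF was -1.98 ± 0.47 (limma adjusted p = 0.05005). With multi-target, FK506 and prednisone it was -1.51, -1.79 and -1.19 (limma adjusted p 0.196, 0.171 and 0.943). Il10ra had 358, 191 and 476 with multi-target, 547, 318 and 191 with MMF, 426, 503 and 445 with FK506 and 1136, 504 and 525 with prednisone, against 746, 1255 and 1234 in vehicle mice. Only prednisone mouse 23 reached into the vehicle range, and the differences were -1.72, -1.71, -1.20 and -0.65 (limma adjusted p 0.163, 0.0509, 0.172 and 0.943).

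**Figure D3:**
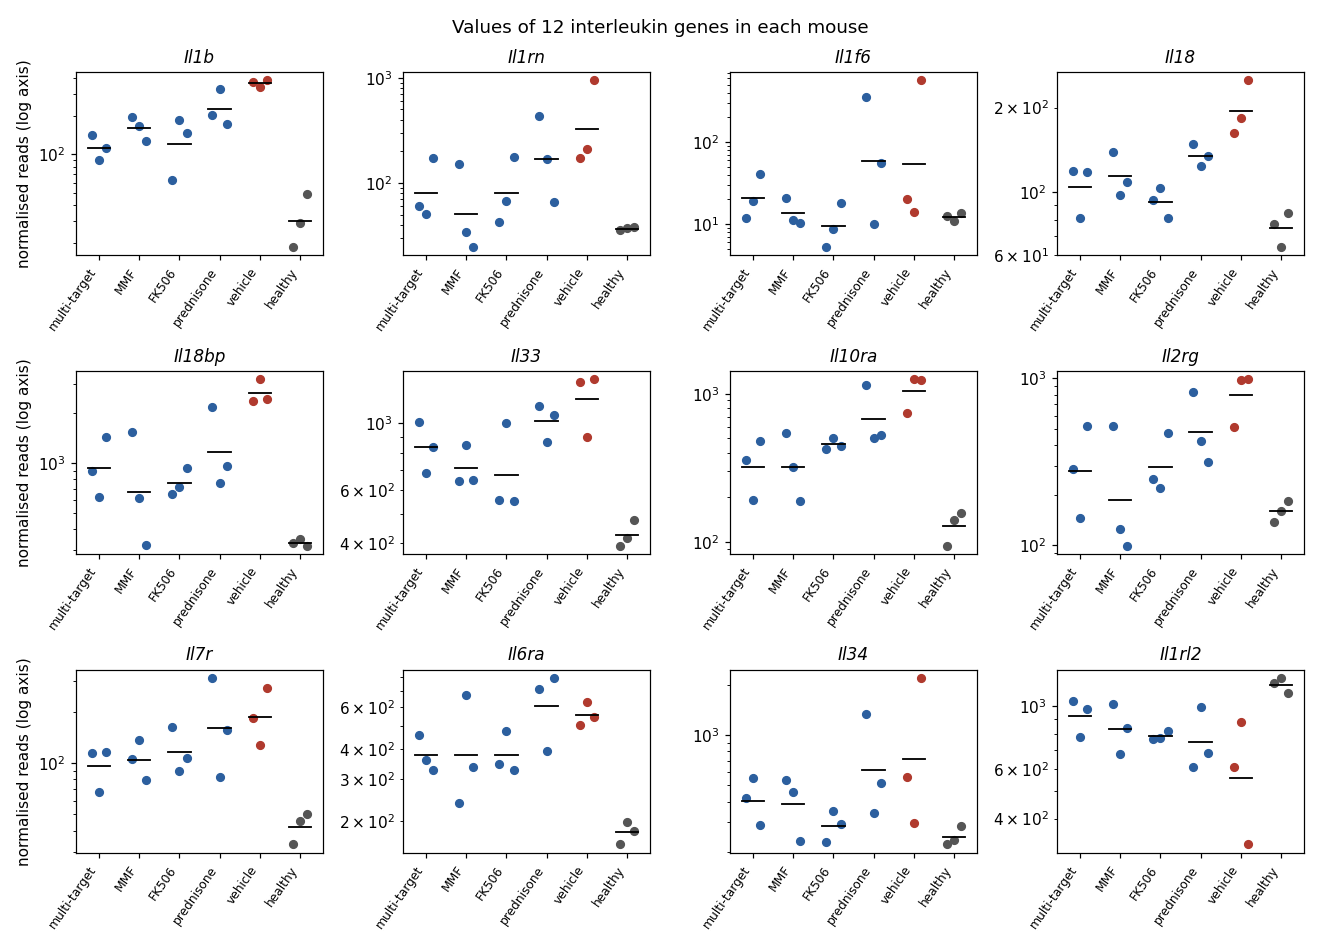
Normalised reads of selected interleukin genes in every mouse on a log axis, with groups ordered multi-target, MMF, FK506, prednisone, vehicle and healthy. Black lines are means on the log scale; the 12 treated mice lie below all 3 vehicle mice for Il1b and Il18.

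The gamma-chain receptors and Il1rn showed a wide spread. Il2rg had 286, 146 and 522 normalised reads with multi-target, 519, 125 and 99.8 with MMF, 249.6, 220.0 and 469.6 with FK506 and 826, 422 and 314 with prednisone, against 512, 982 and 992 in vehicle mice. Every arm but FK506 had a mouse within the vehicle range. Il1rn had 60.2, 51.3 and 173 with multi-target, 152, 34.3 and 24.8 with MMF, 42.7, 67.5 and 178 with FK506 and 435, 170.1 and 66.1 with prednisone, against 171, 211 and 948 in vehicle mice. Its difference with MMF was -2.68 ± 0.83 (limma adjusted p = 0.075), with 2 of the 3 MMF mice below the healthy range of 35.7 to 38.2. Il21r had 119.8, 72.8 and 184 with multi-target, 149.8, 68.2 and 50.6 with MMF, 129, 135 and 131 with FK506 and 295, 137 and 133 with prednisone, against 181, 299 and 321 in vehicle mice. All MMF and all FK506 mice were below the vehicle mice.

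Il2rb, Il1r1 and Il17rd overlapped the vehicle range with prednisone only, and all multi-target, MMF and FK506 mice were below the vehicle mice. For Il2rb the highest of these was multi-target mouse 39 at 214.7 normalised reads, against 220.8 in the lowest vehicle mouse. The members named next overlapped the vehicle range in at least 2 of the 4 arms. Il17a had 294, 389 and 327 normalised reads with multi-target, 372, 327 and 331 with MMF, 312, 349 and 296 with FK506 and 352, 354 and 335 with prednisone, against 322, 325 and 267 in vehicle mice. All MMF and all prednisone mice were above the highest vehicle mouse, while the multi-target and FK506 mice overlapped the vehicle range. Il33 had 1009, 686 and 836 with multi-target, 645, 849 and 648 with MMF, 556, 999.7 and 550.1 with FK506 and 1138, 868 and 1064 with prednisone, against 1373, 902 and 1404 in vehicle mice, so that only the MMF mice were all below vehicle. Il34 and Il1f6, which were high in vehicle mouse 36, were also highest among treated mice in prednisone mouse 23, at 1346 and 357 normalised reads. Il6ra had 459, 361 and 327 with multi-target, 239, 670.5 and 338 with MMF, 346, 475 and 327 with FK506 and 713, 391 and 792 with prednisone, against 506, 628 and 543 in vehicle mice. All multi-target and all FK506 mice were below the vehicle mice. Il7r had 115, 67.1 and 116 with multi-target, 105, 136 and 78.9 with MMF, 162, 90.2 and 107 with FK506 and 315, 83.2 and 155 with prednisone, against 183, 127 and 275 in vehicle mice, and all multi-target mice were below the vehicle mice. Il1rl2, lower than healthy in vehicle mice, had 1040, 777 and 976 with multi-target, 1016, 676 and 839.9 with MMF, 765, 772 and 816 with FK506 and 607, 990.0 and 685 with prednisone, against 608, 878 and 324 in vehicle mice. Every arm overlapped the vehicle range.

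Leukocyte marker lists differed in direction in these comparisons. Summed macrophage and myeloid markers were 17765 to 24649 normalised reads with multi-target, 11100 to 31219 with MMF, 18888 to 26905 with FK506 and 24790 to 71156 with prednisone, the last in mouse 23, against 37806 to 82043 in vehicle mice. The median differences of the 17 markers were -1.40, -1.89, -1.33 and -0.68, with 4 called lower with MMF and 0 in the other arms. T cell markers had medians of -1.07, -1.16, -0.85 and -0.56, with 1 called lower with MMF. For the 4 natural killer markers the medians were -1.19, -1.14, -1.09 and -0.62, with 0 called. The 9 neutrophil markers had medians of -0.02, 0.06, 0.62 and -0.08, and the 8 B and plasma cell markers -0.35, -0.49, 0.12 and 0.04, again with 0 called. Their part in the interleukin values was not tested. Of the partner genes, 2 of 13 were called lower with MMF, Csf2rb (-1.44, limma adjusted p = 0.0459) and Csf2ra (-1.56, limma adjusted p = 0.0459), and of the JAK, STAT and SOCS genes 2 of 22, Jak3 (-0.85, limma adjusted p = 0.0429) and Stat6 (-0.51, limma adjusted p = 0.0459). Jak3 is the kinase bound to the common gamma chain. None of these 4 lists had a called gene in the other arms.

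The multi-target arm was not separated from any single drug. In limma, 0 of 47 members were called against MMF, FK506 or prednisone, where 0.0% of all genes were called in each, and voom on recovered reads also called 0 in each. Without MMF mouse 1, 2 members were called against MMF, and the share of all genes called in that fit is not given here. At an unadjusted p under 0.05 there were 1, 0 and 5 members, where 7.49%, 0.406% and 3.35% of all genes passed. Groups lay wholly apart for 4, 2 and 8 members, where 6.5%, 4.62% and 10.8% of all genes did so. The 1 against MMF was Il5ra, with 123, 126 and 149.6 normalised reads with multi-target, against 98.6, 110.8 and 95.3 with MMF (limma adjusted p = 0.644). The 5 against prednisone were Il10ra, Il1b, Il2rb, Il16 and Il18r1, all lower with multi-target, at -1.07, -1.01, -0.86, -0.54 and -0.43 (limma adjusted p = 0.993 each). For Il1b the multi-target mice at 142, 89.9 and 112 lay below the prednisone mice at 203, 329 and 175. The median difference over the members was -0.22 against prednisone and 0.01 against FK506, where all genes had -0.05 and -0.01. Without prednisone mouse 23 the first was -0.10, and without single mice the second lay between -0.03 and 0.06.

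Against healthy mice, members called were 5 with multi-target (4 higher, 1 lower), 10 with MMF (9 higher, 1 lower), 8 with FK506 (7 higher, 1 lower) and 19 with prednisone (all higher), where 6.98%, 15.9%, 7.27% and 16.7% of all genes were called. The multi-target and MMF shares, 10.6% and 21.3% of the members, were near those of all genes. Leaving out each mouse in turn kept 0 of the 5 calls with multi-target, 1 of the 10 with MMF (Il1b), 0 of the 8 with FK506 and 8 of the 19 with prednisone. After quantile normalization the splits were 1 higher and 1 lower, 4 and 1, 3 and 1, and 8 and 4. By direction, 5.33%, 9.56%, 5.73% and 13.4% of all genes were called higher in these arms and 1.65%, 6.37%, 1.54% and 3.29% lower. Lying wholly apart from the healthy mice were 30, 23, 31 and 38 members, where 46.6%, 39.9%, 46.2% and 53.1% of all genes did so. The medians over the members were 0.33, 0.22, 0.33 and 0.57, against 0.08, 0.05, 0.08 and 0.13 for all genes. These counts moved with single mice, between 0 and 7 for multi-target, 2 and 16 for MMF, 1 and 7 for FK506 and 8 and 20 for prednisone. Without healthy mouse 1, 2 or 3 the counts were 0, 1 and 1 for multi-target, 2, 3 and 2 for MMF, 1, 1 and 3 for FK506 and 10, 11 and 11 for prednisone. Among treated mice, they were 1 and 2 without multi-target mouse 6 or 18, 16, 2 and 4 without MMF mouse 1, 14 or 27, 2 and 1 without FK506 mouse 3 or 12, and 8 without prednisone mouse 23. The share of all genes called is given for the fit of all mice only. Counts from the other fits therefore do not set the members apart from other genes. The arms share the 3 healthy mice with each other and with the disease comparison.

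**Figure D4:**
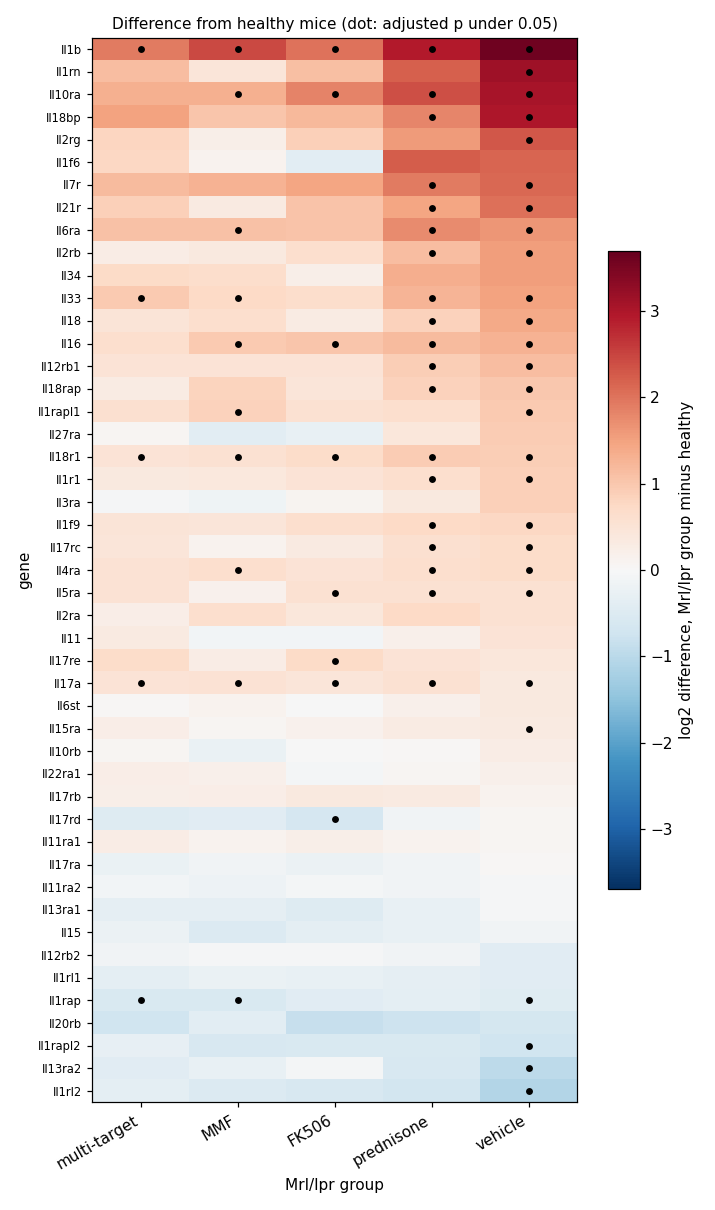
Log2 difference of every Mrl/lpr group from the same 3 healthy Mrl/Mpj mice for interleukin genes, as colour, with the groups in columns and a dot where the adjusted p was under 0.05. Il1b lies above 0 in all 5 groups, between 1.92 with multi-target and 3.61 in vehicle mice.

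Il1b, Il17a and Il18r1 were the 3 members called higher than healthy in all 5 Mrl/lpr groups. For Il1b the differences were 1.92 with multi-target, 2.44 with MMF, 2.01 with FK506, 2.93 with prednisone and 3.61 in vehicle mice, at limma adjusted p of 0.0122, 0.00253, 0.0089, 0.000349 and 3.7e-05. The lowest of the 12 treated mice, at 63.4 normalised reads, was above the highest healthy mouse at 48.8. The multi-target call was lost without multi-target mouse 6 or healthy mouse 1, and the FK506 call without FK506 mouse 12 or healthy mouse 1. Il18r1 had 99.8, 104 and 94.2 with multi-target, 95.2, 106 and 106 with MMF, 128, 98.3 and 113 with FK506 and 151, 128 and 123 with prednisone, against 73.8, 63.1 and 72.9 in healthy mice. Its differences were 0.51, 0.56, 0.69 and 0.94 in these arms (limma adjusted p 0.0497, 0.0246, 0.0138 and 0.00104). For Il17a they were 0.51, 0.55, 0.44 and 0.56 (limma adjusted p 0.0245, 0.0136, 0.0442 and 0.00753). The calls of both genes held without any single mouse with prednisone, and were each lost without at least 1 mouse with multi-target, MMF and FK506. For Il17a with MMF that was healthy mouse 3 alone. With prednisone, the Il18r1 call also held under the other alternatives, while the Il17a call was lost under at least 1 of them.

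Other members were called in some arms only, which does not show that the arms differ. Il10ra was called with MMF (1.33), FK506 (1.84) and prednisone (2.39), at limma adjusted p of 0.041, 0.0174 and 0.00188. Il16 was called in the same 3 arms at 0.97, 1.02 and 1.17 (limma adjusted p 0.0205, 0.024 and 0.00603). Il33 was called with multi-target (0.97), MMF (0.73) and prednisone (1.25), at limma adjusted p of 0.0256, 0.0468 and 0.00324. Il6ra was called with MMF (1.07, limma adjusted p = 0.0364, and 0.66 without MMF mouse 14) and with prednisone (1.75, limma adjusted p = 0.00277). Il7r, Il18bp and Il21r were called with prednisone, at 1.91, 1.81 and 1.46 (limma adjusted p 0.00846, 0.019 and 0.0255). With prednisone, 8 calls held whichever mouse was left out, those of Il1b, Il10ra, Il7r, Il6ra, Il33, Il16, Il18r1 and Il17a. The other 11 were lost without prednisone mouse 23, where Il18bp stood at 1.36 and Il21r at 1.09 (limma adjusted p 0.1 and 0.129). In the other arms, each call other than that of Il1b with MMF was lost without at least 1 mouse. In the opposite direction, Il1rap was lower than healthy with multi-target and with MMF, by -0.57 in each (limma adjusted p 0.0359 and 0.0252), and Il17rd, an inhibitor of FGF signalling that also binds the IL-17 receptor, was lower with FK506 (-0.63, limma adjusted p = 0.0456).

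Reads of some members may be shared with another gene. The labels do not say whether counting used strand, and an overlap on the same strand would remain either way. In the GENCODE M21 annotation, 40.0% of the exon bases of Il12rb2 overlap Serbp1 and 15.3% of those of Il16 overlap Stard5, both on the other strand. On the same strand, 30.5% of those of Il2rg overlap Gm20489 and 14.9% of those of Il10rb overlap Gm21970. The exons of Il18bp overlap Numa1 over 2.64% and those of Il1b overlap Il1bos over 1.31%. Il11ra1 and Il11ra2 are near-identical copies, and their values are uncertain for that reason. For 12 members, among them Il1rn, Il33, Il34, Il1r1 and Il18r1, the values were not whole reads on the recovered scale.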

How the data were processed

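Kidney cortex RNA of 18 mice was sequenced, in 6 groups of 3 given by the labels. Per the labels' protocols, RNA of frozen tissue was column-purified before library preparation from total RNA. The authors deposited 1 log2 value per gene symbol and library, for 15035 symbols. The submitters' processing notes name limma and mm10, without roles. Aligner and annotation: not given in the sources used here. Raised as a power of 2 and divided by 1 constant of each library, 75.0% to 75.5% of the values came within 0.001 of whole reads (in at least 17 libraries for 11178 genes, of which 35 are members). The rest were not whole, and how they were summarised is unknown. Relative depths ran between 67.1% and 100% of the deepest library. No pseudocount or filter was added.

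The values were fitted with limma 3.58.1 in R 4.3.3 as 6 group means over the 18 mice (12 residual degrees of freedom, prior variance following the mean level), in 13 two-sided comparisons, each with Benjamini-Hochberg adjustment over all genes at 0.05. The fit was tested on simulated data. Rows with names turned into dates (23) and repeated symbols (4) were tested and not named. The genes and lists were chosen with earlier results of these data known. Named were called members, up to the 12 largest, and members of the main interleukin families. Alternatives were a fit on the compared groups only, quantile normalization, voom on recovered reads, a pseudocount of 16, dropping the lowest 25% of genes, array weights and leaving out libraries, of which the joint removal of vehicle mouse 36 and prednisone mouse 23 was chosen after seeing the data.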

Additional observations from a re-analysis of the deposited data

How the results depend on the processing

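No paired analysis was made, because nothing in the labels ties a mouse in one group to a mouse in another. Each count below is of members called, and the share of all genes called under each alternative is not given here. Disease gave 27, and 10 without the lowest 25% of genes, where fewer members were tested; leaving out 1 mouse gave 18 to 27, and leaving out vehicle mouse 36 and prednisone mouse 23 together gave 20. Of the 27 calls, 14 held under all alternatives that tested the gene. Against vehicle, leaving out 1 mouse gave 0 to 14 for MMF, 0 to 14 for the mean of the 4 arms, 0 to 2 for multi-target against MMF, and 0 in the other comparisons of drug arms with vehicle or of multi-target with single drugs. A pseudocount of 16 gave 2 for MMF, and voom gave 2 for the mean of the 4. Array weights gave 18 for multi-target, 18 for MMF, 12 for FK506 and 13 for the mean of the 4 against vehicle, and 11 and 7 for multi-target against MMF and against FK506. Those weights ran to 26.6 for multi-target mouse 6, with 0.0955 for MMF mouse 1, and their estimation stopped before convergence. Against healthy, in the order multi-target, MMF, FK506 and prednisone, the counts were 5, 10, 8 and 19. Leaving out 1 mouse gave 0 to 7, 2 to 16, 1 to 7 and 8 to 20. Quantile normalization gave 2, 5, 4 and 12, dropping the lowest 25% of genes gave 2, 6, 2 and 9, and array weights gave 40, 28, 33 and 30. Fitting only the groups compared gave 15 for multi-target and 19 for FK506, and voom gave 6 for MMF and 5 for FK506. Without vehicle mouse 17 and FK506 mouse 12 together the counts were 3 for multi-target and 1 for FK506. They were 12 for multi-target and 12 for prednisone without vehicle mouse 36 and prednisone mouse 23 together. The cause of these shifts was not tested. Over the named genes and alternatives, 1569 differences kept their side of the threshold, 77 moved past it, 271 no longer passed it and 0 changed sign. A gene left uncalled in both fits counts as keeping its side, so the total does not measure how stable the calls were. Fits that left out 1 mouse kept a call against healthy 9, 22, 14 and 71 times with multi-target, MMF, FK506 and prednisone. They lost it 21, 38, 34 and 43 times in the same order. Depth limits Il1f6 most, with 4 reads at the lowest.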
